A study of Mus musculus with 6 samples.

Results

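The RNA-binding proteins that set exon choice in the heart were examined as 10 genes, *Rbm20*, *Rbm24*, *Celf1*, *Celf2*, *Mbnl1*, *Mbnl2*, *Rbfox1*, *Rbfox2*, *Ptbp1* and *Ptbp2*. They were chosen by symbol, and each symbol matched 1 of the 54532 genes of the count table. All 10 passed the filter on low values, which left 13323 genes to test. The libraries held polyadenylated RNA from cardiomyocyte (CM) nuclei of wildtype ICR mice of postnatal day 9. Every mouse had received, at day 6, a subcutaneous dose of 1e+11 viral genomes of an AAV9 virus whose cardiac troponin T (cTnT) promoter directs expression to CMs. The virus carried GFP as the control, YAP5SA, a form of the transcriptional coactivator YAP that the Hippo pathway kinases cannot inhibit, or YAP6SA, which has one further substitution and does not bind the TEAD transcription factors. Nuclei were drawn from whole hearts with an antibody to PCM1, a protein that gathers at the nuclear envelope of CMs, and the promoter, the dose and the pulldown were the same in all groups, GFP included. Each group had 2 libraries from 2 hearts, replicates 1 and 2, and the labels give the replicate number as batch 1 or 2. P-values therefore rest on few libraries. They come from a model of all 6 libraries, in which the groups share an estimate of the spread. A comparison of 2 groups so also carries the spread within the group not compared.

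Splicing regulators bind short motifs in pre-mRNA and raise or lower the use of a nearby exon. In striated muscle, RBM20, RBM24, the MBNL proteins and RBFOX proteins favour the exon choices of mature muscle, while CELF1, CELF2 and PTBP1 are known for acting against many of those choices, with levels that fall as the heart matures. The counts were per gene, so they gave the level of each regulator's RNA and not the splicing of its targets.

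Total gene counts were between 14552847 and 19615627 per library. The overexpression itself was not visible in the gene counts of *Yap1*, which were 2647 and 1987 in GFP, 2397 and 2147 in YAP6SA and 2089 and 1828 in YAP5SA. Whether cassette reads were counted on *Yap1* was not tested. CM markers were high in all libraries, and 15 of them summed to CPM values (read counts scaled to a common library size by the trimmed mean of M-values) of 66900 and 86270 in GFP, 65280 and 82840 in YAP6SA OE (overexpressing) CMs, and 56600 and 40990 in YAP5SA OE CMs. YAP5SA replicate 2 had the lowest sum of CM markers and the highest sum of cell cycle genes, 757 CPM against 154 to 194 CPM in the other groups. These are bulk nuclei, in which fewer cells of a type and less RNA per cell cannot be told apart.

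In YAP5SA OE CMs the polypyrimidine tract binding proteins *Ptbp1* and *Ptbp2* rose, with log2 fold changes over GFP of 1.01 and 0.76, and *Rbfox1* fell by 1.12. The other 7 regulators did not pass the threshold, a false discovery rate (FDR) of 0.05 in edgeR's quasi-likelihood test over all 13323 genes with batch as a term. The 3 of 10 members called stand beside 22.0% of all genes tested (12.8% higher and 9.18% lower). In YAP6SA OE CMs, 0 of 10 members were called, as against 0.0450% of all genes, and 0 were called in any of the 9 other fits. In the main fit, 0 of 10 had an unadjusted p under 0.05 in this test, beside 5.93% of all genes. The spread of the YAP5SA libraries is part of that fit. Both comparisons use the same GFP libraries. The median log2 fold change of the 10 genes was -0.13 in YAP5SA and 0.01 in YAP6SA OE CMs, with -0.00314 and 0.00179 over all genes.

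**Figure D1:**
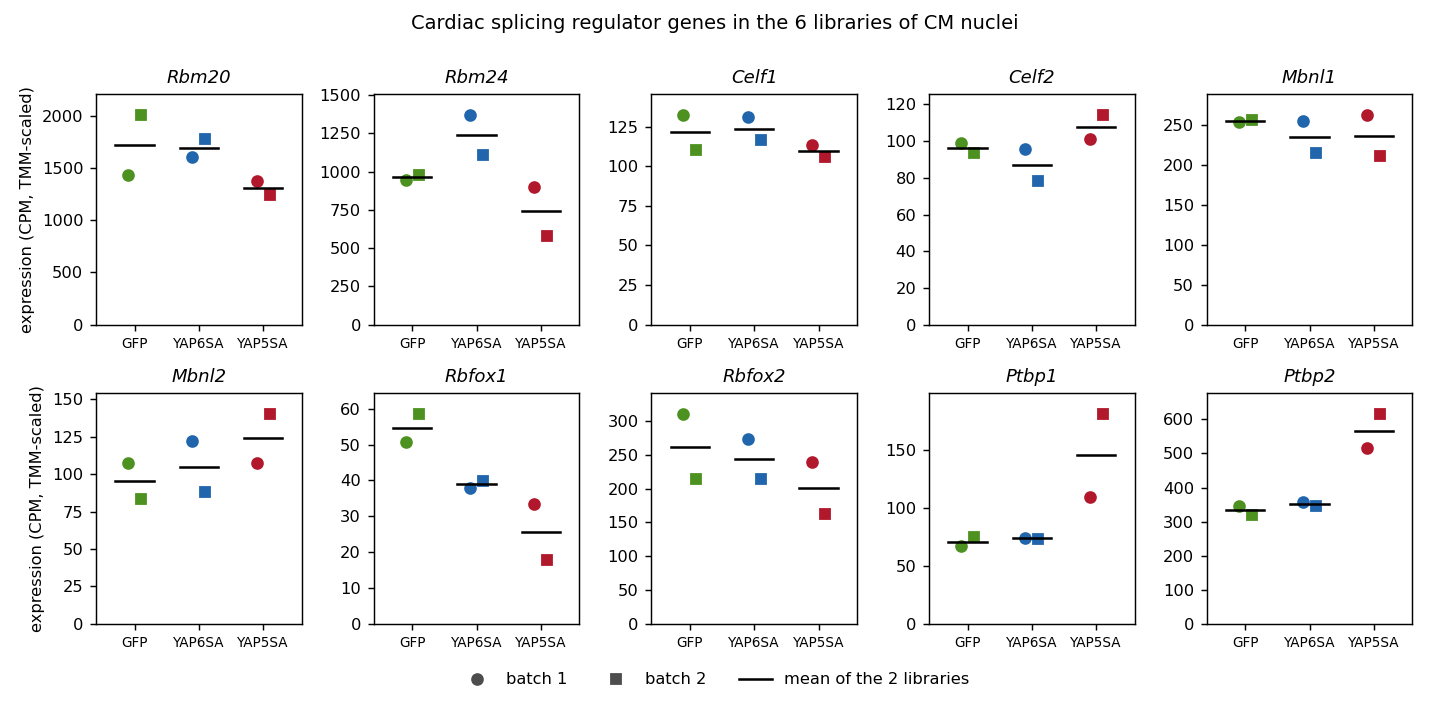
Expression of each regulator in CPM (vertical axes, each from 0) in the 6 libraries, with circles for batch 1, squares for batch 2 and a bar for the mean of the 2 libraries of a group. *Ptbp1* and *Ptbp2* were higher in both YAP5SA libraries than in all other libraries, and *Rbfox1* was lowest there.

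Levels can be set between genes only per length, so CPM values were also divided by the exon length in kilobases (RPKM). In GFP, the most abundant were *Rbm24*, at 275 ± 6.98 RPKM (mean ± SD, n = 2), and *Rbm20*, at 254 ± 60.2 RPKM, and both lay above 99.4% of the genes tested. *Rbm20* encodes the main repressor of titin exons, and *Rbm24* a promoter of muscle exon inclusion. Their ranges overlapped, so the order between them was not resolved. *Ptbp2*, at 36.3 ± 2.08 RPKM, and *Rbfox2*, at 32.2 ± 8.41 RPKM, followed and also overlapped. *Ptbp1* (14.9 ± 1.15 RPKM), *Celf1* (14.4 ± 1.87 RPKM) and *Mbnl1* (13.6 ± 0.0910 RPKM) came next, each overlapping its neighbour. *Rbfox1* (12.4 ± 1.25 RPKM), *Mbnl2* (7.95 ± 1.44 RPKM) and *Celf2* (3.72 ± 0.143 RPKM) each lay below the gene before it with no overlap. The length used is the union of all annotated exons, which is long for *Celf2* (25884 bases) and *Mbnl1* (18717 bases). With the longest transcript as length, *Celf2* was at 10.9 RPKM, *Mbnl1* at 45.0 RPKM and *Ptbp2* at 82.2 RPKM, so the order depends on the length taken. *Rbm20*, at 353 RPKM, was then above *Rbm24*, at 311 RPKM, and these were still the most abundant.

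**Figure D2:**
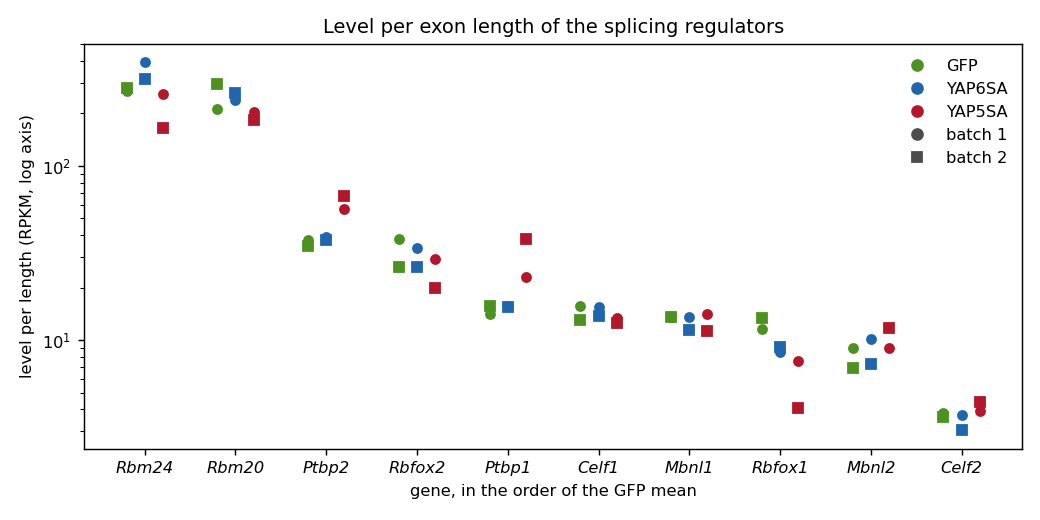
Level per exon length (RPKM, log axis) of the regulators, in the order of the GFP mean, with colours for the groups and circles and squares for batches 1 and 2. *Rbm24* and *Rbm20* stood above the other 8 genes in all 6 libraries.

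*Ptbp1* (ENSMUSG00000006498, chromosome 10 of GRCm38, 79854427 to 79864771, plus strand) encodes a repressor of tissue-specific exons that most tissues express. In batches 1 and 2 its level was 66.7 and 74.4 CPM under GFP, 74.3 and 73.3 CPM under YAP6SA, and 110 and 181 CPM under YAP5SA. Both YAP5SA libraries were above the other 4, and the second was well above the first. The log2 fold change over GFP was 1.01 ± 0.19 (SE), a fold of 2.02 with a 95% interval of 1.51 to 2.70 (edgeR quasi-likelihood, FDR 0.00559). Within batch 1 the log2 difference was 0.71, and within batch 2 it was 1.28. Between the variants, 3 of 10 members were called, 2 higher and 1 lower in YAP5SA. Of all 13323 genes tested, 14.7% were called, 1199 genes higher and 757 (5.68%) lower in YAP5SA. Against YAP6SA, *Ptbp1* in YAP5SA OE CMs was higher by 0.94 ± 0.19 on the log2 scale (FDR 0.0107). YAP6SA against GFP gave 0.07, with a 95% interval of -0.34 to 0.49 (FDR 0.967). The libraries carry no strand, and exons of *Ptbp1* share bases with 3 genes on the opposite strand, *E130317F20Rik*, *Plppr3* and *Gm17134*. These held 138, 557 and 0 counts over the 6 libraries, against 9960 for *Ptbp1*.

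*Ptbp2* (ENSMUSG00000028134, chromosome 3, 119718742 to 119784466, minus strand) encodes the paralog best known from developing neurons. Its values were 346 and 319 CPM in GFP, 356 and 347 CPM in YAP6SA OE CMs, and 516 and 616 CPM in YAP5SA OE CMs. The YAP5SA libraries again lay above all others, and here the GFP and YAP6SA libraries were close together without overlapping. The log2 fold change of YAP5SA over GFP was 0.76 ± 0.17, a fold of 1.70 with a 95% interval of 1.31 to 2.21 (FDR 0.0121). It was 0.58 within batch 1 and 0.95 within batch 2. Against YAP6SA it was 0.69 ± 0.17 (FDR 0.0249), and YAP6SA against GFP gave 0.08, with an interval of -0.30 to 0.45 (FDR 0.960). Both *Ptbp* calls over GFP were lost without GFP replicate 2, where the log2 fold changes were 0.92 for *Ptbp1* (FDR 0.0639) and 0.66 for *Ptbp2* (FDR 0.185), with the lone GFP library assumed to vary like the other groups. Over YAP6SA, the call on *Ptbp1* was lost without YAP6SA replicate 2 (0.71, FDR 0.190), and that on *Ptbp2* without YAP6SA replicate 1 (0.74, FDR 0.148) or replicate 2 (0.63, FDR 0.362).

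The 250 bases before the RefSeq start sites (GRCm38.p6) of the 3 genes called are shown, since YAP6SA and YAP5SA differ in TEAD binding and the TEAD motif GGAATG could be looked for there. They are written 5′ to 3′ on the strand of the gene, for *Ptbp1* from chr10:79854182-79854431 (plus strand), for *Ptbp2* from chr3:119783389-119783638 (minus strand) and for the 2 starts of *Rbfox1* from chr16:5884543-5884792 and chr16:7069585-7069834 (plus strand). *Celf2* has several start sites, and it is added from chr2:7396199-7396448 (minus strand) because that window alone held the motif, which is in capitals.
Ptbp1: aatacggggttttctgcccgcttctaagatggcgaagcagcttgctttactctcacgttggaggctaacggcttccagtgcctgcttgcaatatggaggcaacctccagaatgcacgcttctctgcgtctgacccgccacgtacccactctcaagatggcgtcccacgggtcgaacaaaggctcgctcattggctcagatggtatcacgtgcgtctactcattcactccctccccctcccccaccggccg
Ptbp2: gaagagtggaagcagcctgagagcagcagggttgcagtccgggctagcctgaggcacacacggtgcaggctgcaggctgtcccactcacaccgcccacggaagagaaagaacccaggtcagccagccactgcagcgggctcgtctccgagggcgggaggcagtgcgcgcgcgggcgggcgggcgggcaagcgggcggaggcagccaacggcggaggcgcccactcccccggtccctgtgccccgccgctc
Rbfox1 start 1: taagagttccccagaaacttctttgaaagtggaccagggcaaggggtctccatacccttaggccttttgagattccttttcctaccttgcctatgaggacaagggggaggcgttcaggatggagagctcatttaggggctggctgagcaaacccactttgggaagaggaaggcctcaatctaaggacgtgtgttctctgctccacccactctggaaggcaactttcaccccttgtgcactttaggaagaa
Rbfox1 start 2: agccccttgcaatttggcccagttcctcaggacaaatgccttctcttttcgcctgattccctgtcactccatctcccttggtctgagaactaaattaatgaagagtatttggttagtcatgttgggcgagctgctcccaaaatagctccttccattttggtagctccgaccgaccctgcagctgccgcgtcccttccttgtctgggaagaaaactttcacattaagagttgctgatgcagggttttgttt
Celf2: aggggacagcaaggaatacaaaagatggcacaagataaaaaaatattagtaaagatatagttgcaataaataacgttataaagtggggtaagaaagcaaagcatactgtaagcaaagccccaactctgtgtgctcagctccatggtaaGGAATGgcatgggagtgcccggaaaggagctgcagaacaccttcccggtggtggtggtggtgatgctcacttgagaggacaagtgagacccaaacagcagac
RefSeq windows, which run from 250 bases before to 50 after a start, were found for 8 of the 10 genes and numbered 14. GGAATG, on either strand, was in 1 of them, as it was in 14.7% of all 32851 windows. The match in *Celf2* began 102 bases before the start shown, and the other windows of *Celf2* held none. The absence of these letters says nothing on TEAD binding to these genes. The windows of *Ptbp1* and *Ptbp2* held 22 and 36 CpG dinucleotides at 58.3% and 74.7% GC, against a median of 7 and 52.7% over all windows, while those of *Rbfox1* held 3 and 7 at 52.7% and 50.0% GC.

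*Rbfox1* (ENSMUSG00000008658, chromosome 16, 5885355 to 7411526, plus strand) encodes a regulator of exons in heart, skeletal muscle and brain. It was at 50.8 and 58.6 CPM in GFP, at 37.9 and 40.0 CPM in YAP6SA OE CMs, and at 33.5 and 17.9 CPM in YAP5SA OE CMs. The 3 groups did not overlap, with GFP highest and YAP5SA lowest. Against GFP, *Rbfox1* in YAP5SA OE CMs fell by 1.12 ± 0.26 on the log2 scale, to 0.459 of the GFP level with a 95% interval of 0.309 to 0.681 (FDR 0.0133). The fall was larger in the second batch, with a log2 difference of -0.60 in batch 1 and -1.71 in batch 2. The call was lost without GFP replicate 2 (-0.82, FDR 0.135), and without YAP5SA replicate 2 the value was -0.62 (FDR 0.0394). In YAP6SA OE CMs the log2 fold change over GFP was -0.49 ± 0.25, with values of -0.42 and -0.55 in the 2 batches. It did not pass the threshold (FDR 0.842, and no lower than 0.0815 in any of the 9 other fits), and its interval, -1.05 to 0.06, covers both no change and nearly the size seen in YAP5SA. That interval also carries the spread of the YAP5SA libraries. With either YAP5SA library left out the value was still -0.49, and over all libraries left out it ran from -0.77 to -0.16. The direct difference of YAP5SA from YAP6SA was -0.63 ± 0.25 (FDR 0.125), which did not pass. It passed in 1 of the 9 other fits, the one with no filter on low counts (-0.63, FDR 0.0287). With YAP5SA replicate 1 left out that difference passed (-1.19, FDR 3.6e-04), and with replicate 2 left out it was -0.13.

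*Rbfox2* (ENSMUSG00000033565, chromosome 15, 77078990 to 77307004, minus strand) encodes the family member that is widespread among tissues. It was at 310 and 214 CPM in GFP, at 274 and 215 CPM in YAP6SA OE CMs, and at 239 and 163 CPM in YAP5SA OE CMs. In each group the batch 2 library was the lower, and the groups overlapped. YAP5SA against GFP gave -0.39 ± 0.15 (FDR 0.0946), with nearly equal values of -0.38 and -0.39 within the batches. Without YAP5SA replicate 1 it passed (-0.44, FDR 0.0452). The batch term itself gave -0.48 for *Rbfox2*, the largest batch difference of the 10 genes, and did not pass (FDR 0.153). Of the members, 0 were called for batch, beside 0.203% of all genes.

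*Rbm24* (ENSMUSG00000038132, chromosome 13, 46418434 to 46431095, plus strand) was at 944 and 978 CPM in GFP, at 1371 and 1105 CPM in YAP6SA OE CMs, and at 902 and 576 CPM in YAP5SA OE CMs. The YAP6SA libraries were above GFP and the YAP5SA libraries below it, with no overlap of the 3 groups. Neither difference from GFP passed, with 0.35 ± 0.21 for YAP6SA (FDR 0.874) and -0.42 ± 0.21 for YAP5SA (FDR 0.179). The difference between the variants passed, with a log2 fold change of YAP5SA over YAP6SA of -0.76 ± 0.21 (FDR 0.0359), and of -0.60 in batch 1 and -0.94 in batch 2. The call was lost in the fit without the batch as replicate block (FDR 0.0878), and also without YAP6SA replicate 1 (-0.75, FDR 0.229), YAP6SA replicate 2 (-0.76, FDR 0.327) or YAP5SA replicate 2 (-0.50, FDR 0.0806). With YAP5SA replicate 1 left out, YAP5SA against GFP passed as well (-0.67, FDR 0.00666).

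*Rbm20* (ENSMUSG00000043639, chromosome 19, 53677306 to 53867080, plus strand) had the highest CPM of the 10 genes. Its values were 1436 and 2014 CPM in GFP, 1613 and 1780 CPM in YAP6SA OE CMs, and 1381 and 1246 CPM in YAP5SA OE CMs. The GFP libraries enclosed those of YAP6SA, and the YAP5SA libraries were below all others. The difference from GFP was -0.38 ± 0.21 in YAP5SA OE CMs (FDR 0.235), nearly all of it in batch 2, where it was -0.69 against -0.06 in batch 1. In YAP6SA OE CMs it was -0.01, with an interval of -0.49 to 0.46. Without YAP5SA replicate 1, the library nearer to GFP, the YAP5SA difference passed (-0.61, FDR 0.0126).

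**Figure D3:**
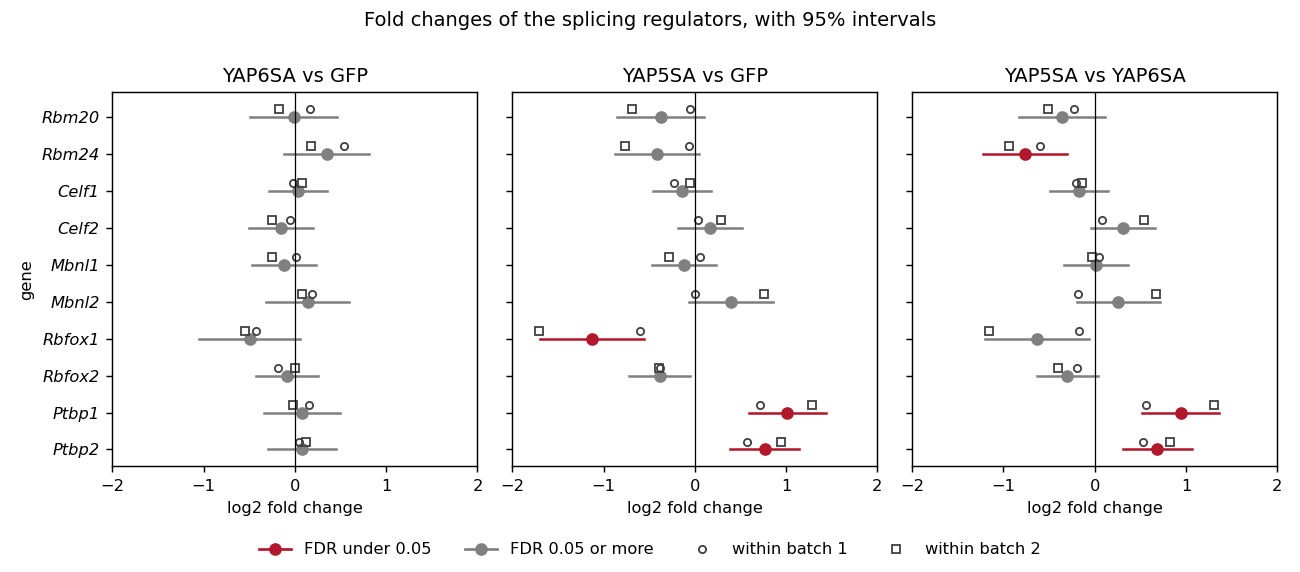
Log2 fold change of each regulator in the 3 comparisons (horizontal axis), with filled points and lines for the fitted value and its 95% interval, red where the FDR was under 0.05, and open circles and squares for the difference within batches 1 and 2. *Ptbp1* and *Ptbp2* were called against both GFP and YAP6SA, *Rbfox1* against GFP, and *Rbm24* against YAP6SA.

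The CELF and MBNL families act against each other on many muscle exons, and none of their 4 members here was called in any comparison. *Celf1* (ENSMUSG00000005506, chromosome 2, 90940382 to 91019497, plus strand) was at 132 and 110 CPM in GFP, 131 and 116 CPM in YAP6SA OE CMs and 114 and 106 CPM in YAP5SA OE CMs. The GFP libraries overlapped those of both other groups, and YAP5SA against GFP gave -0.14, with an interval of -0.46 to 0.18 (FDR 0.512). *Celf2* (ENSMUSG00000002107, chromosome 2, 6539694 to 7509563, minus strand) had 98.9 and 93.7 CPM in GFP, 95.6 and 78.5 CPM in YAP6SA OE CMs and 101 and 114 CPM in YAP5SA OE CMs. Its YAP5SA libraries were just above all others, at a log2 fold change over GFP of 0.17, with an interval of -0.18 to 0.52 (FDR 0.479).

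The MBNL proteins, which are sequestered by repeat RNA in myotonic dystrophy, promote adult exon choices. *Mbnl1* (ENSMUSG00000027763, chromosome 3, 60472830 to 60629750, plus strand) was at 253 and 256 CPM in GFP, 255 and 215 CPM in YAP6SA OE CMs and 263 and 211 CPM in YAP5SA OE CMs. The groups overlapped, and YAP5SA against GFP was -0.11, with an interval of -0.47 to 0.24 (FDR 0.638). *Mbnl2* (ENSMUSG00000022139, chromosome 14, 120275669 to 120431697, plus strand) was at 108 and 83.1 CPM in GFP, 122 and 87.8 CPM in YAP6SA OE CMs and 108 and 140 CPM in YAP5SA OE CMs. Only YAP5SA replicate 2 stood above the rest, and the log2 fold change over GFP was 0.40 ± 0.21 (FDR 0.193), with 0.00 in batch 1 and 0.76 in batch 2. With YAP5SA replicate 1 left out it passed (0.78, FDR 0.00105), and with replicate 2 left out it was -0.02. The intervals of these 4 genes in the comparisons with GFP lay within -0.50 and 0.86.

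Counting the members whose libraries did not overlap gave 6 of 10 for YAP5SA against GFP, 3 of 10 for YAP6SA against GFP and 7 of 10 for YAP5SA against YAP6SA. Over all genes tested the shares were 60.9%, 34.3% and 57.6%, and those of the members were near them. The sign of the YAP5SA difference from GFP was the same in both batches for 8 of 10 members, against 74.6% of all genes tested. For YAP6SA it was the same for 5 of 10, against 58.5% of all genes.

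Ratios between the genes of a family, taken within each library on RPKM, do not depend on library scaling, but their level depends on the gene length used. With the length of the longest transcript in place of all exons, the means in GFP, YAP6SA and YAP5SA became 0.50, 0.69 and 0.20 for *Celf1* to *Celf2*, 1.405, 1.15 and 0.91 for *Mbnl1* to *Mbnl2*, -1.07, -1.47 and -1.84 for *Rbfox1* to *Rbfox2*, and -1.89, -1.90 and -1.65 for *Ptbp1* to *Ptbp2*. This shifts a ratio by the same amount in every library, so the differences between libraries are the same on either length. The values that follow use all exons. The log2 ratio of *Rbfox1* to *Rbfox2* was -1.73 and -0.98 with GFP, -1.97 and -1.54 with YAP6SA and -1.95 and -2.30 with YAP5SA. The means were -1.35, -1.75 and -2.12, but the libraries of GFP and YAP6SA overlapped, as did those of YAP6SA and YAP5SA. Within batches 1 and 2 the log2 ratio in YAP6SA differed from GFP by -0.24 and -0.56, and that in YAP5SA by -0.22 and -1.32, so both variants lay below GFP in both batches. YAP5SA differed from YAP6SA by 0.02 and -0.76, with opposite signs in the batches. For *Ptbp1* to *Ptbp2* the means were -1.29 ± 0.19 (SD, n = 2), -1.30 ± 0.01 and -1.05 ± 0.33. *Ptbp2* was the more abundant per length in all 6 libraries. Within the batches the YAP5SA ratio was above GFP by 0.14 and 0.33, but the libraries of these groups overlapped. YAP5SA replicate 1, at -1.28, lay between the GFP libraries, at -1.42 and -1.15. The YAP6SA ratio differed from GFP by 0.11 and -0.14, and that of YAP5SA from YAP6SA by 0.03 and 0.47. *Mbnl1* to *Mbnl2* gave 0.79 ± 0.27, 0.53 ± 0.16 and 0.30 ± 0.50, with only YAP5SA replicate 2 below 0, at -0.06. *Celf1* to *Celf2* gave 1.94 ± 0.13, 2.13 ± 0.08 and 1.64 ± 0.19, and here both YAP5SA libraries, at 1.78 and 1.50, lay below the other 4, which ran from 1.85 to 2.18. No test was made on the ratios.

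**Figure D4:**
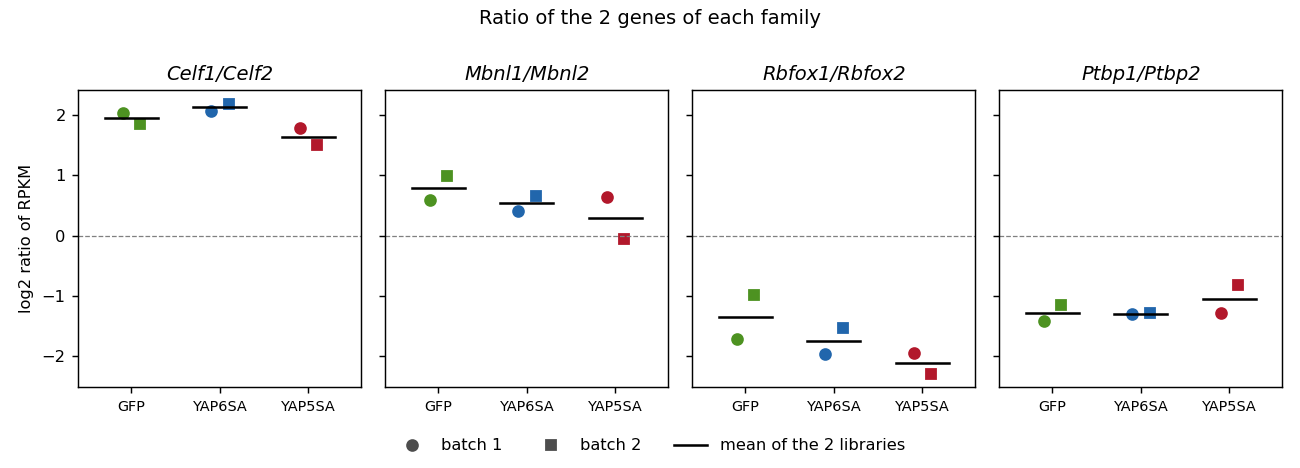
Log2 ratio of RPKM between the 2 genes of each family (vertical axis) by group, with circles and squares for batches 1 and 2 and a bar for the mean. The mean *Rbfox1* to *Rbfox2* ratio was lowest in YAP5SA, but in batch 1 YAP6SA, at -1.97, was just below YAP5SA, at -1.95. The *Mbnl1* to *Mbnl2* ratio had its widest spread in YAP5SA.

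Of 9 paralogs or partners of these proteins, 5 (*Celf3*, *Celf4*, *Celf5*, *Celf6* and *Rbfox3*) did not pass the filter, with at most 33 counts in a library. *Rbm38*, *Ptbp3* and *Matr3* were not called in YAP5SA OE CMs, at -0.15, 0.38 and 0.00 against GFP. *Mbnl3*, the MBNL gene known from fetal and regenerating tissue, rose. It had 21 and 20 counts in GFP, 18 and 12 in YAP6SA, and 213 and 512 in YAP5SA libraries. The YAP5SA libraries stood far above the other 4, with a log2 fold change over GFP of 4.08 ± 0.40 (FDR 2.9e-04) that stayed between 3.55 and 4.58 with any library left out.

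Among 26 tested of 33 other tissue splicing regulators, 1 rose and 5 fell in YAP5SA OE CMs against GFP. Of all genes tested, 12.8% were called higher and 9.18% lower in this comparison. *Esrp2*, an epithelial regulator, rose by 1.64 (FDR 0.0380) from low counts of 47 and 29 to 69 and 192. *Srrm4*, the regulator of neuronal microexons, fell by 2.14 (FDR 0.0164), from 218 and 147 counts to 71 and 14. *Rbpms2*, a muscle RNA-binding protein, fell by 1.06 (FDR 0.00314) and *Khdrbs3*, a STAR family protein, by 0.90 (FDR 0.0325). With a library left out the log2 fold change ran from 0.89 to 2.51 for *Esrp2*, -3.62 to -1.25 for *Srrm4* and -1.50 to -0.36 for *Khdrbs3*, against -1.30 to -0.83 for *Rbpms2*. The medians were -0.04 for this list and 0.00 for all genes.

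The hnRNPs, abundant proteins that coat pre-mRNA and often repress exons, had 5 of 24 genes higher and 0 lower, beside 12.8% and 9.18% of all genes tested. *Hnrnpll* rose from 119 and 116 CPM in GFP to 274 and 262 CPM in YAP5SA OE CMs, by 1.19 ± 0.14 (FDR 8.1e-04), with 1.20 and 1.18 in the batches. *Hnrnpab* rose by 1.00 (FDR 0.0200) and *Hnrnpf* by 0.70 (FDR 0.0315), and the median of the list was 0.26. Leaving out a library gave 0.57 to 1.39 for *Hnrnpab*, 0.47 to 0.94 for *Hnrnpf* and 1.18 to 1.21 for *Hnrnpll*. Of 12 tested SR proteins, activators of exons, 0 were called. An unadjusted p under 0.05 was seen for 3 of these 12, beside 36.4% of all genes tested. Of 35 tested genes of the core spliceosome 1 rose, *Snrpg*, by 0.86 (FDR 0.0482). Of 7 kinases that phosphorylate SR proteins 2 fell, *Srpk2* by 0.89 (FDR 0.00512) and the muscle kinase *Srpk3* by 0.78 (FDR 0.0492). With a library left out *Srpk3* ran from -1.33 to -0.28, *Srpk2* from -1.08 to -0.67 and *Snrpg* from 0.64 to 1.12.

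Of 25 genes known to be spliced by RBM20, 2 rose and 3 fell at the gene level, where 12.8% of all genes tested were called higher and 9.18% lower. Those that rose were *Rtn4* (0.85, FDR 0.0129), a reticulon, and *Tpm1* (0.84, FDR 0.0186), a tropomyosin. Of the others, *Nebl*, a Z-disc protein, fell by 0.90 (FDR 0.0184) and *Ryr2*, the calcium release channel, by 0.81 (FDR 0.0455). Leaving out a library gave 0.51 to 1.17 for *Rtn4*, 0.76 to 0.93 for *Tpm1*, -1.32 to -0.50 for *Nebl* and -1.21 to -0.40 for *Ryr2*. The gene level does not show the exons used. In YAP6SA OE CMs, 0 genes of these 7 lists were called by edgeR's quasi-likelihood test. In that test 8 had an unadjusted p under 0.05, as did 5.93% of all genes tested. DESeq2 called 2 of them, *Rbmx* (0.71, FDR 0.0421), an hnRNP, and *Tpm1* (0.70, FDR 0.0204), and limma-voom called 0. With no filter on low counts edgeR called 3, *Rbmx*, *Sh3kbp1* and *Tpm1*, and with its likelihood ratio test 1, *Rbmx*, all higher. In the fit of GFP and YAP6SA alone edgeR called 5, *Rbmx*, *Tpm1*, *Sh3kbp1* and *Srsf2* higher and *Trdn* lower. That fit called 276 of all 13323 genes tested. Without YAP5SA replicate 1 or replicate 2 the log2 fold changes of these 5 had the same signs. These genes were picked out after their values were seen. All 20 calls in YAP5SA kept their sign with any library left out, but 4 of 20 passed the threshold without GFP replicate 2, 10 without GFP replicate 1, 10 without YAP5SA replicate 2 12 without the replicate block and 12 in the fit of GFP and YAP5SA alone. *Mbnl3*, *Hnrnpll* and *Rbpms2* passed in each of these.

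**Figure D5:**
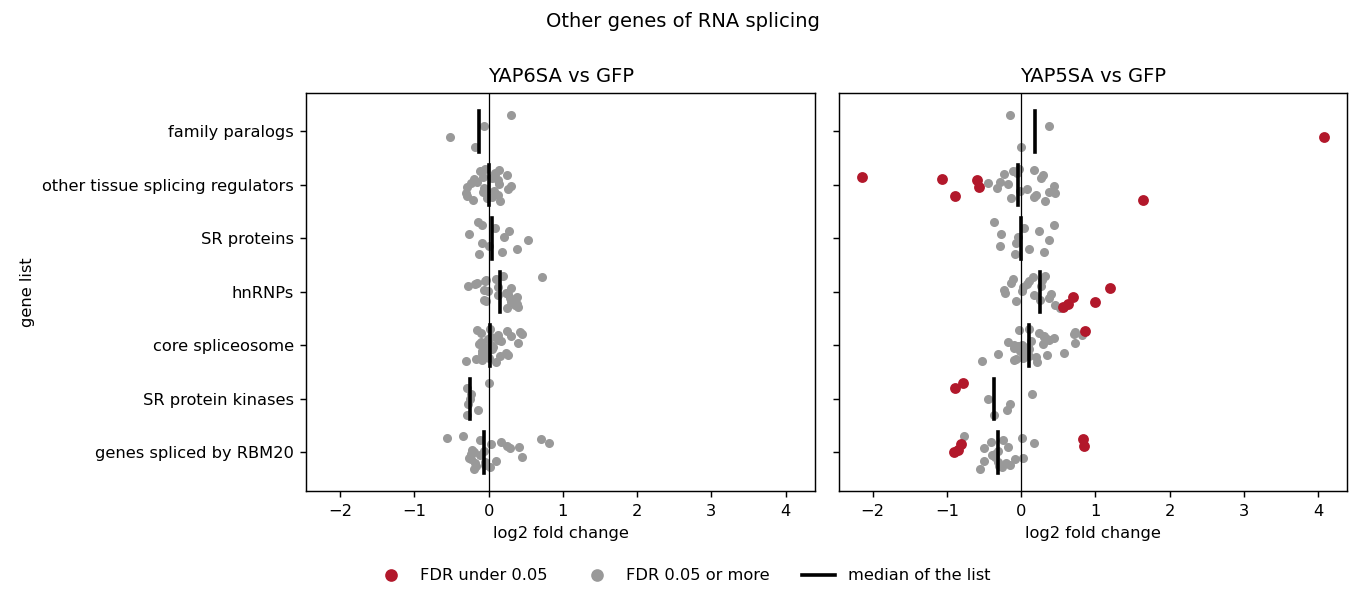
Log2 fold change over GFP (horizontal axis) of the tested genes of 7 splicing lists in YAP6SA (left) and YAP5SA OE CMs (right), 1 point per gene, red where the FDR was under 0.05, with a bar for the list's median. The red points are in YAP5SA only, and *Mbnl3* is the one at 4.08.

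The genes most like *Ptbp1* and *Rbfox1*, the members with the largest change in YAP5SA OE CMs, were found by the root mean square difference of log2 CPM over the 6 libraries, each gene centred on its mean. For *Ptbp1* they were *Lmnb1* (0.0433), *Hyou1* (0.0671) and *Xbp1* (0.0679), which encode a nuclear lamin, a chaperone of the endoplasmic reticulum and a factor of the unfolded protein response. For *Rbfox1* they were *Ttc38* (0.0872), *Mccc1* (0.0954) and *Mitf* (0.0991). The points share 6 libraries, and in all 8 genes the value farthest from the mean was that of YAP5SA replicate 2.

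Markers of other states and cell types moved with these changes in part. Their calls stand beside 12.8% of all genes tested called higher and 9.18% lower for YAP5SA against GFP. All 12 cell cycle genes were higher in YAP5SA OE CMs than in GFP, and their sum went from 192 and 154 CPM in GFP to 523 and 757 CPM. In the libraries of YAP6SA it was 194 and 187 CPM. Epicardial markers, 2 of 4 called higher, summed to 76.9 and 68.6 CPM in GFP, 87.6 and 61.4 CPM in YAP6SA OE CMs, and 182 and 321 CPM in YAP5SA OE CMs. Fibroblast markers, 0 of 8 called, summed to 730 to 1076 CPM in GFP and 739 to 1167 CPM in YAP5SA OE CMs, and endothelial markers, 1 of 9 called, to 529 to 682 CPM and 582 to 724 CPM. Macrophage markers, 1 of 8 tested called higher, summed to 68.8 to 98.9 CPM and 92.3 to 134 CPM. For mural and smooth muscle cells, 2 of 7 tested markers were higher and 1 lower, with sums of 460 to 535 CPM and 325 to 404 CPM. For neurons and Schwann cells 1 of 2 tested was higher, with sums of 49.4 to 65.8 CPM and 45.2 to 54.6 CPM, while *Th* had 0 counts in all libraries. Of the skeletal muscle list 3 of 6 tested were higher, at sums of 73.9 to 125 CPM and 192 to 202 CPM, with *Myod1*, *Pax7* and *Myh4* at 0 counts. The sums of this list were as high in YAP6SA OE CMs, at 279 and 189 CPM, where 0 of 6 were called. Similar sums did not mean similar genes, and *Ckm* alone made up 55.8% of the sum in GFP. Tested between the variants, 3 of 6 were called higher and 2 lower in YAP5SA, beside 14.7% of all genes in either direction. The median log2 fold change of the 6 over GFP was 5.475 in YAP5SA and 0.705 in YAP6SA OE CMs. Erythroid markers, 0 of 2 tested called, summed to 48.7 to 59.5 CPM and 31.7 to 46.8 CPM. The part of other cells or of cell cycle entry in the values of *Ptbp1*, *Ptbp2* and *Rbfox1* was not tested.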

How the data were processed

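Raw read counts per gene for 6 libraries were deposited by the authors, who mapped reads with STAR to mm10 (GRCm38) with the Ensembl 94 annotation, and applied no normalization. The submitters' processing notes name STAR and edgeR, with no version. Reads ambiguous between genes, mapped to several places or outside genes were not in these counts. Symbols, exon lengths and coordinates came from GENCODE M21, which has the same build, and start sites from RefSeq (GRCm38.p6). The filter kept genes that had, in any group, a median log2 CPM above 1. A quasi-likelihood model of all 6 libraries with batch and group terms was made with edgeR 4.0.16 (R 4.3.3) after TMM scaling, with Benjamini-Hochberg adjustment over 13323 genes. The pipeline was tested on simulated data. The labels give the replicate number as the batch, so the batch term pairs libraries. Within a batch the gene-wise correlation of deviations was 0.368 between GFP and YAP6SA, but only 0.0985 between GFP and YAP5SA and 0.175 between the variants. Replicates of a group had a chi-square per degree of freedom of 25.3 to 39.6, so none was a copy. Intervals within a library cover counting error only. Alternatives were RLE and upper quartile scaling, no filter, at least 10 counts in every library, the likelihood ratio test, DESeq2 1.42.0, limma-voom (limma 3.58.1), no batch term, only the 4 libraries compared, thresholds of 0.01 and 0.1, and each library left out. The 10 genes and the lists were chosen with earlier results of these data known. Outside the 10 genes, those named are the paralogs, up to 3 genes per list and direction with the largest fold change among those called and changed alike in both batches, and the 3 genes most like each of 2 members. Protein sequences were not used here. The values of 2 genes of these lists are not reported here.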

Additional observations from a re-analysis of the deposited data

Results flagged for a closer look

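The 2 YAP variants were compared directly in the 10 genes, and 3 of them passed the test of the difference itself. Of all 13323 genes tested, 14.7% passed that test, 1199 genes higher and 757 lower in YAP5SA. *Celf2* is also given, only because its signs against GFP were opposite in the variants. *Ptbp1* and *Ptbp2* were higher in YAP5SA than in YAP6SA OE CMs, with log2 fold changes of 0.94 and 0.69 (edgeR quasi-likelihood, FDR 0.0107 and 0.0249). *Rbm24* was also set apart by that test, at -0.76 (FDR 0.0359), and in both batches it lay above GFP in YAP6SA and below GFP in YAP5SA OE CMs. *Celf2* lay below GFP in YAP6SA and above it in YAP5SA OE CMs in both batches, but in batch 1 by only -0.05 and 0.04. Neither difference from GFP passed, at -0.15 (FDR 0.929) and 0.17 (FDR 0.479), nor did that of 0.31 between the variants (FDR 0.207), and both signs against GFP turned with a library left out, to 0.00814 and -0.00598. Of all 13323 genes tested, 10.8% had opposite signs of this kind in both batches, and of the 10 members 2 did. Groups of 2 libraries were not tested for outlying samples.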

How the results depend on the processing

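With 2 libraries per group, the 95% interval of a member's log2 fold change over GFP had a median width of 0.40 to either side. Under all 9 other fits *Ptbp1*, *Ptbp2* and *Rbfox1* were called for YAP5SA against GFP, and *Ptbp1* and *Ptbp2* for YAP5SA against YAP6SA. When a library was left out, the one remaining in its group was assumed to vary like the other groups. At a threshold of 0.01, 1 member was higher and 0 lower for YAP5SA against GFP, and 0 higher and 0 lower for YAP5SA against YAP6SA. At 0.1, 2 were lower against GFP. The share of all genes called at these thresholds is not given here. For YAP5SA against YAP6SA, 2 were lower with no filter, *Rbm24* and *Rbfox1*, and 0 without the replicate block, which changed no other call on a member. Over all genes, 757 of 13323 were lower in the main fit of this comparison. With no filter it was 1161 of 27396, and without the replicate block 301 of 13323. With no filter or the likelihood ratio test, 1 member was called for batch. Over all genes the calls for batch also rose, from 27 of 13323 to 485 of 27396 with no filter and 349 of 13323 with the likelihood ratio test. Leaving out each library gave 0 to 3 members higher and 0 to 4 lower for YAP5SA against GFP, 0 to 4 higher and 0 to 3 lower for YAP5SA against YAP6SA, and 0 to 1 for batch.

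Over all genes tested, 1708 were called higher and 1223 lower for YAP5SA against GFP, and 1331 and 759 without the replicate block, 591 and 197 without GFP replicate 2, and 2538 and 2261 without YAP5SA replicate 1. For YAP6SA against GFP the 6 genes called became 145 with no filter, 82 with the likelihood ratio test, 54 with DESeq2, 276 in the fit of 4 libraries and 0 without the replicate block, with 0 members in each.

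The sign of some differences that were not called turned with a library left out. For YAP5SA against GFP the log2 fold change ran from -0.00598 to 0.34 for *Celf2*, -0.25 to 0.0394 for *Mbnl1* and -0.0171 to 0.78 for *Mbnl2*. For YAP6SA against GFP it ran from -0.25 to 0.24 for *Rbm20*, which was also 0.00124 in the fit of 4 libraries, -0.0326 to 0.10 for *Celf1*, -0.32 to 0.00814 for *Celf2*, -0.27 to 0.0282 for *Mbnl1*, -0.12 to 0.36 for *Mbnl2*, -0.19 to 0.00860 for *Rbfox2*, -0.17 to 0.29 for *Ptbp1* and -0.0291 to 0.20 for *Ptbp2*. For YAP5SA against YAP6SA it ran from -0.0915 to 0.12 for *Mbnl1* and -0.15 to 0.65 for *Mbnl2*. The log2 ratio of *Mbnl1* to *Mbnl2* in YAP5SA was -0.0551 without replicate 1 and 0.65 without replicate 2. The cause of these changes was not tested.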
